A study of Cynodon dactylon with 6 samples.

Results

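In leaves of bermudagrass seedlings held at 42 °C, 165 abundant transcripts were lower after 2 h of heat and lower again after 12 h. They were chosen by their read counts out of the 111743 unigenes of the table, a unigene being a gene-level unit to which reads had been assigned. Counts were divided by a size factor per library, the median of its ratios to the geometric mean of each unigene over all 6 libraries. Then 1 was added to each group mean. Members had a control mean of at least 400 scaled reads, a 2 h mean of at most 50% of the control mean and a 12 h mean of at most 50% of the 2 h mean. All 3 groups therefore went into the choice, so the direction and the minimum size of both steps are fixed by it, and the members' levels are described here without a test.

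The seedlings of Cynodon dactylon, a warm-season turf grass, were 10 days old and labelled wild type. Leaves came from controls labelled 0 h, which had no heat, and from seedlings at 42 °C for 2 h or 12 h, with 2 libraries per group. The labels do not say whether replicates came from separate plants, so spreads and p-values measure the difference between these libraries, which may be technical. No unheated leaves of the later times were among the samples, so length of heating and time of sampling cannot be told apart.

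As background, bermudagrass is a C4 grass, whose leaves share carbon fixation between mesophyll and bundle sheath cells. Plant cells answer heat through heat shock transcription factors, which switch on genes of protein folding, while many genes of normal growth are expressed less. The level of a messenger RNA depends on both its synthesis and its decay; in Arabidopsis, heat is known to start decay of many messages, in which the exonuclease XRN4 takes part. The files do not pair unigenes with gene names, and no sequence of a unigene was used here. The members are therefore described by level, time course, length and the assembly component they share. In whole leaves, fewer cells of a type and less RNA per cell cannot be told apart.

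The libraries held 6313500 to 9326725 assigned reads. Size factors were 1.01 and 0.696 in the controls, 0.786 and 0.862 at 2 h and 1.35 and 1.57 at 12 h. The 12 h libraries thus carried larger factors than their totals alone would give. This bears on the second step, and its value without that scaling is given below. All 165 members passed the abundance filter and were among the 25828 unigenes tested by edgeR.

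Of the 111743 unigenes, 3735 had a control mean of at least 400. The 2 h limit was met by 416 of these and the 12 h limit by 1061, and 165 met both. Another 251 met the first limit only, here called an early fall that did not continue, and 896 met the second only, here called a late fall. The 165 were not the only abundant unigenes with a total fall of at least 4-fold: 402 others reached it with a step outside the limits.

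Above the control minimum the course was more frequent among unigenes with more control reads, a level here not divided by length. Below it there was no such order: both fold limits were met by 1.68% of 3574 unigenes with 50 to 100 scaled reads and by 1.19% of 3445 with 100 to 200. Among the 2888 unigenes with a control level of 200 to 400 scaled reads, the last class below the minimum, 1.07% did. The share was 1.94% of 2373 unigenes between 400 and 1000, 6.18% of 1117 between 1000 and 4000 and 20.4% of 245 above 4000. The second limit, taken by itself, was met by 19.5% of the unigenes between 400 and 1000 and by 72.2% of those above 4000, and the first by 7.80% and 27.8%. At 50 to 100 scaled reads these shares were 12.5% and 8.48%. All these shares rest on size factors and were not computed with library totals, with which the rule gave 105 members in place of 165. They are descriptions of 1 set of 6 libraries and were not tested.

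Together the members took 10.4% and 10.2% of the reads of the control libraries, 4.27% and 4.09% at 2 h, and 1.63% and 1.73% at 12 h. The groups did not overlap, which the choice of members by their group means largely fixes. The means were 10.3% ± 0.145, 4.18% ± 0.132 and 1.68% ± 0.0669 (SD, n = 2 each) of the library total. With size factors in place of totals, the members' summed scaled reads were 932735 ± 8042, 370827 ± 30339 and 101283 ± 1875 (SD, n = 2 each). The 10 members with most control reads took 4.85% ± 0.0164, 2.05% ± 0.126 and 0.933% ± 0.0521. The other 155 took 5.47% ± 0.161, 2.13% ± 0.00545 and 0.748% ± 0.0148 (SD, n = 2 each), so at 12 h the 10 held more than all the others. Of the 100 unigenes with most reads, 24 and 22 were members in the control libraries, 7 and 8 at 2 h and 3 in each 12 h library. The choice sets the direction of this fall too.

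**Figure D1:**
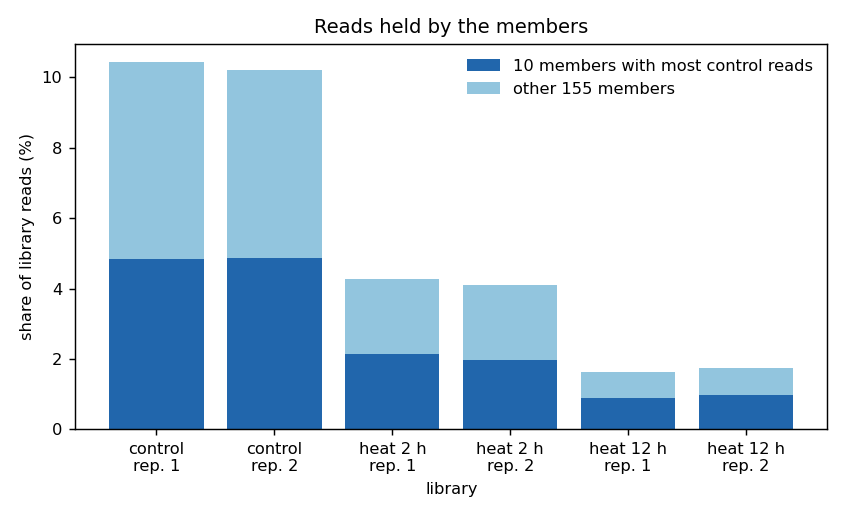
Share of all reads of each library, in percent, that fell on the 10 members with most control reads (dark) and on the other 155 (light). The bars stand at 10.4% and 10.2% in the controls, 4.27% and 4.09% at 2 h and 1.63% and 1.73% at 12 h.

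As a fold, the typical member had the larger step between 2 h and 12 h; in scaled reads the first loss is always the larger, since the rule takes at least 50% of the control level away by 2 h. The median scaled count of the members was 1896 and 1890 in the control libraries, 686 and 638 at 2 h and 141 and 135 at 12 h. The median first step was 2.44-fold (quartiles 2.204 and 3.11), and the median second step was 4.09-fold (quartiles 2.64 and 8.99). A median of 40.9% of the control level was left after 2 h and 8.75% after 12 h. On the log2 scale the medians were 1.29 for the first step and 2.03 for the second. Over all 25828 unigenes tested they were -0.0019 and -0.08, and over the 3735 of control level 400 or more they were 0.17 and 0.39, where a positive value is a fall.

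The second step was the larger in 127 members and the first in 38. This balance depended on the scaling: with library totals alone in place of size factors, the second step was the larger in 84 of the same members and the first in 81, and the median second step was 1.48 on the log2 scale. That scaling also moved the median of all unigenes tested in the second step from -0.08 to -0.62. The median of the 3735 of control level 400 or more went from 0.39, a fall, to -0.16, a rise. Relative to the median of all unigenes tested, the members' second step was 2.11 with size factors and 2.10 with totals. A change of scaling shifts both medians by nearly the same amount, so the calculation fixes this closeness and nothing is read from it.

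**Figure D2:**
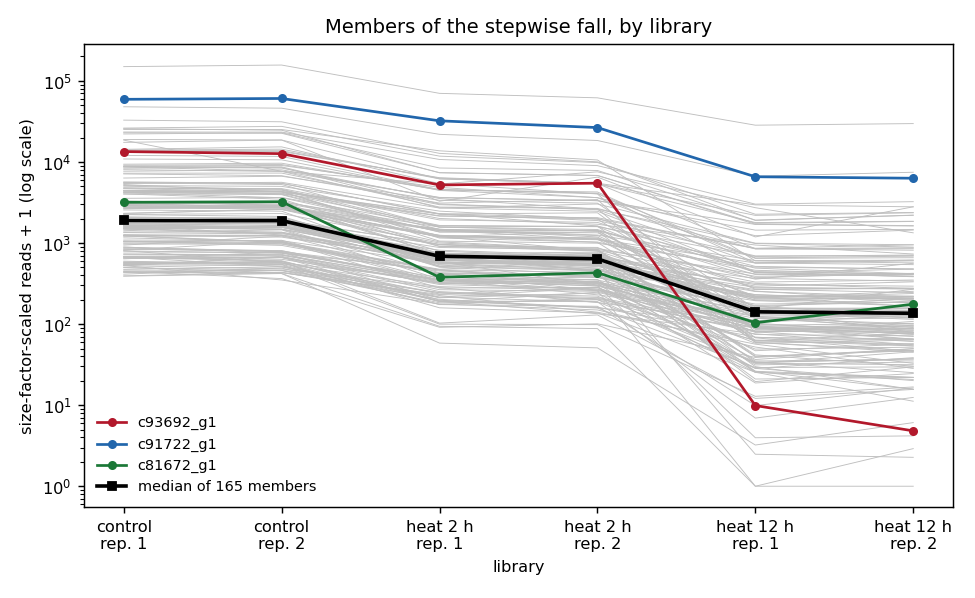
Size-factor-scaled reads plus 1, on a log axis, of each of the 165 members (grey lines) in the 6 libraries, with their median (black squares) and 3 named members (coloured). The median stands at 1896 and 1890 in the controls, 686 and 638 at 2 h, and 141 and 135 at 12 h; lines join the points of 1 unigene and are not a time scale.

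Measured per hour, the order of the steps turned, which the rule and the lengths of the steps largely fix. The first step spans 2 h and the second 10 h, and the median fall was 0.64 log2 units per hour in the first and 0.20 in the second. Members with a faster fall per hour in the second step numbered 2, whether libraries were scaled by size factors, by TMM (trimmed mean of M-values) or to totals. Little is read from this count. The rule takes at least 2-fold in the first 2 h, so the lowest first fall was 0.50 log2 units per hour. A second step had to exceed 32-fold over 10 h to be faster, and 8 members reached 32-fold. The level between the sampled times was not measured, so a rate within the second step cannot be given.

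The first step varied less in size than the second. The first ranged from 2.01-fold to 7.94-fold, and 14 members reached 4-fold. The second ranged from 2.02-fold to 726-fold, and 84 members reached 4-fold, 45 reached 8-fold, 27 reached 16-fold and 8 reached 32-fold. Both steps reached 4-fold in 8 members. Across the 165 members the sizes of the 2 steps showed little relation (Spearman rho = -0.03, Pearson r = 0.05 on the log2 scale; the 2 h libraries enter both steps with opposite sign, which pulls such a correlation down).

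**Figure D3:**
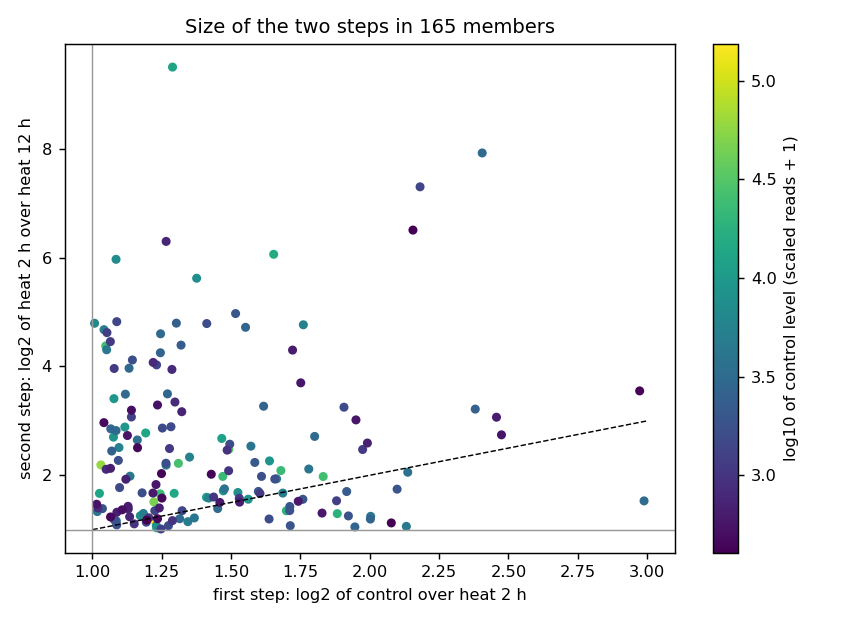
Log2 of the first step (control over 2 h, horizontal) against log2 of the second (2 h over 12 h, vertical) for the 165 members, coloured by log10 of the control level; grey lines mark the limits of 2-fold and the dashed line equal steps. Most points lie between 1 and 2 in the first step, while the second reaches 9.50.

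Each limit is described by the nearest member inside it and the nearest unigene outside, picked for closeness on that limit alone. The member of lowest control level stood at 405 scaled reads, and the nearest unigene left out, which met both fold limits, at 393. For the first step the smallest member had 2.01-fold and the nearest unigene left out 1.99-fold. For the second step these were 2.02-fold and 1.95-fold. Away from its own limit a pair could differ. In the pair of the first step, the second steps were 27.8-fold inside and 2.01-fold outside. In the pair of the second step, the first steps were 2.37-fold and 2.04-fold. A first step under 2.2-fold was found in 41 members and a second step under 2.2-fold in 11, so more members lay near the limit of the first step.

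Replicates were close in most members, and closest in the controls. The scaled counts of both control libraries lay within 1.2-fold of each other in 152 of 165 members, against 116 at 2 h and 107 at 12 h. The median absolute log2 ratio between replicates was 0.06, 0.19 and 0.15. Among the 2423 unigenes that passed the same control minimum and met neither fold limit these medians were 0.09, 0.11 and 0.12. Their control levels were lower, with a median of 670 scaled reads against 1882 in members. In the 2 h libraries, replicate 1 was the higher in 133 of 165 members, with a median log2 ratio of 0.16. It was 0.15 in the late fall, 0.11 in the early fall that did not continue and 0.03 in unigenes that met neither limit. Leaving out 2 h replicate 1 or 2 gave 184 or 151 members, of which 156 and 142 were among the 165.

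By edgeR's quasi-likelihood test over all unigenes (Benjamini-Hochberg adjusted p below 0.05), 161 of the 165 members were called lower at 2 h against control, where 14.4% of all unigenes tested were. At 12 h against control all 165 were called lower, where 24.4% of all were. At 12 h against 2 h, 163 members and 22.8% of all were called lower. With library totals alone, 12.6% of all unigenes tested were called lower at 12 h against control and 11.7% at 12 h against 2 h, with 164 and 163 of the members. The choice of members used these contrasts, so nothing is read from the counts. The scaled counts of neighbouring groups did not overlap in any of the 165 members. Every 2 h library was below every control in 32.6% of all unigenes tested, every 12 h library below every control in 33.9%, and every 12 h library below every 2 h library in 33.3%. The choice by means largely fixes this too.

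The 4 members that missed a call, named here after their values were seen, each had unequal replicates in some group. This was not particular to them: replicates lay over 1.5-fold apart in 2 members in the controls, 8 at 2 h and 17 at 12 h. What decided the calls was not tested. Unigene c25083_g1 had 18591 and 7673 scaled reads in the controls, 5348 and 7556 at 2 h and 2727 and 1335 at 12 h. Its lower control lay close to its higher 2 h library, and neither single step was called. Unigene c89608_g2 had 17444 and 18628 scaled reads in the controls, 3278 and 6502 at 2 h and 1188 and 2797 at 12 h. In both heated groups replicate 2 was far above replicate 1, and again neither step was called.

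Unigene c90544_g5, with 942 and 1212, then 586 and 302, then 91.9 and 64.3 scaled reads, missed the call at 2 h only. So did c78947_g1, with 6334 and 6668, then 3363 and 3103, then 153 and 77.7. The latter had the smallest first step of all members, 2.01-fold, with replicates close in the controls and at 2 h.

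Levels of different unigenes can be compared only per length, for which the deposited FPKM serve (fragments or reads scaled to the length of the unigene and the total of the library). FPKM are scaled to library totals, so folds between groups are given from scaled counts. The members' mean control FPKM ranged from 25.3 to 10438, with a median of 152. The median was 56.6 at 2 h and 16.4 at 12 h. In the late fall the median control FPKM was 95.03, in the early fall that did not continue 63.6, and in the abundant unigenes that met neither limit 41.5. The middle ranges of these classes overlapped (quartiles 65.5 and 480 in members, 49.4 and 197 in the late fall), and the difference was not tested.

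The highest FPKM among members belonged to c72836_g2, with 10007 and 10869 in the controls, 3409 and 2615 at 2 h and 82.9 and 66.3 at 12 h. Its scaled counts were 14312 and 15354, then 5403 and 4026, then 79.3 and 59.8. This is a 3.15-fold first step and a 66.8-fold second step. By FPKM it was the highest member before heat, and at 12 h the members of the next 5 ranks were above it. By scaled control reads it ranked 13 among the members. Its FPKM imply division by a length of only 159 bases, and its rank by FPKM depends on that.

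The next in rank, c91722_g1, had an FPKM of 5855 and 5947 in the controls, 3083 and 2707 at 2 h and 959 and 952 at 12 h. Its scaled counts were 59276 and 60687, then 32175 and 26556, then 6568 and 6300, a first step of 2.04-fold and a second of 4.56-fold. Replicates lay close in the controls and at 12 h and somewhat apart at 2 h.

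The members of ranks 3, 4 and 5 had control FPKM of 5736, 5525 and 5193, so that ranks 2 to 5 lay close together. That of rank 5 was also the member with most reads, with 150021 and 156884 scaled reads in the controls, 70219 and 61808 at 2 h and 28428 and 29738 at 12 h. It alone took 1.70% ± 0.0445 of the control reads, 0.744% ± 0.0296 at 2 h and 0.483% ± 0.0257 at 12 h (SD, n = 2 each), and at 12 h it had the highest FPKM of all members, 1421 and 1534. The order of members by level thus changed through the 12 h, since second steps differed widely.

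**Figure D4:**
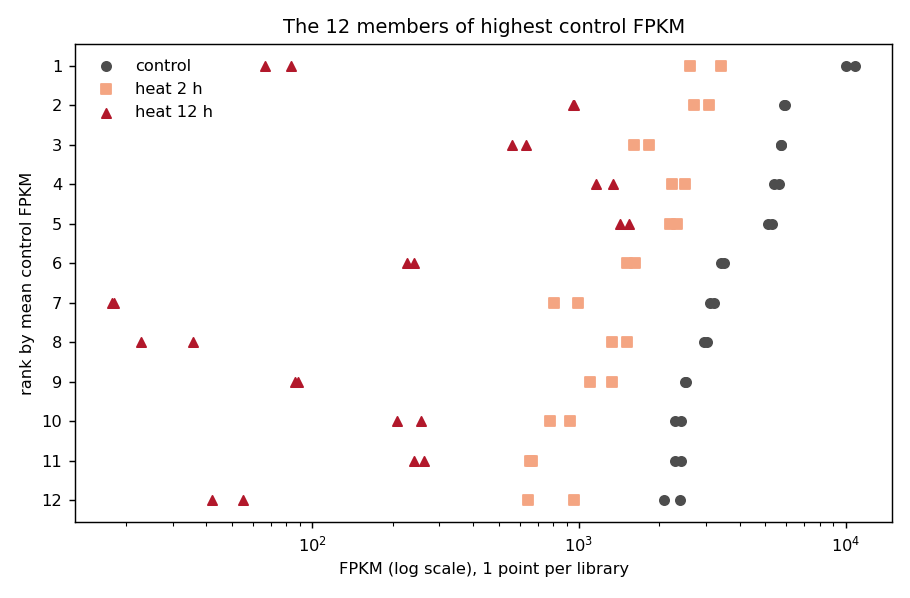
FPKM, on a log axis, of the 12 members with the highest mean control FPKM, 1 point per library (grey circles control, orange squares 2 h, red triangles 12 h). In each of the 12 the groups are apart, and the 12 h values run from 17.8 to 1534 while the control values run from 2086 to 10869. The ranks depend on the length by which FPKM were divided, which was below 300 bases in several of the 12.

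The largest first step was that of c81672_g1, from 3181 and 3232 scaled reads in the controls to 377 and 429 at 2 h, 7.94-fold lower. Its second step was among the smaller ones, 2.89-fold, to 103 and 175. The 12 h replicates differed by more than those of the other groups but stayed below the 2 h values.

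Unigene c93401_g2 came next, from 436 and 419 scaled reads to 57.3 and 49.9, a 7.85-fold first step, and then to 2.22 and 5.09, an 11.7-fold second step. It is 1 of the 8 members with at least 4-fold in each step, and its 12 h value rests on few reads. Of the 14 members with a first step of at least 4-fold, 6 had a second step below 4-fold.

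With 1 added to each group mean, the largest second step and the largest total fall were those of c93692_g1. It had 13428 and 12659 scaled reads in the controls and 5204 and 5473 at 2 h, a 2.44-fold first step that equals the median of the members. At 12 h it had 8.89 and 3.82, from 12 and 6 reads, a second step of 726-fold and 1774-fold in all. The 2 h replicates lay close together, and the 12 h libraries held almost none of this transcript. It is also 1 of the 2 members that declined faster per hour in the second step than in the first, at 0.95 against 0.64 log2 units.

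The second in both respects, again with 1 added, was c72836_g3. It had 2895 and 3226 scaled reads in the controls, 701 and 453 at 2 h and 1.48 and 1.27 at 12 h, from 2 reads in each. The first step was 5.30-fold and the second 243-fold, with 1 added to each group mean. The 12 h value is so low that 1 read more or less moves the fold.

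At 12 h the depth limited the folds of a few members. In each 12 h library 6 members had fewer than 10 reads, and 1 member, c45128_g1, had none in either, after 393 and 292 reads in the controls and 73 and 75 at 2 h. Against a floor of 3 reads over the 12 h group, its second step was at least 87.5-fold and its total fall at least 391-fold. Unigene c72836_g1 had 0 and 3 reads at 12 h, after 281 and 222 at 2 h. Its second step was 158-fold with 1 added to each group mean. Taken from the reads without the added 1 it was 297-fold, with a 95% exact counting interval from 101 to 1446, which covers counting error only. On that basis c72836_g3 had a second step of 417-fold (interval 162 to 1534), so folds this deep depend on the added 1 and the intervals of both overlap. The total fall of c72836_g3 was 2212-fold without the added 1 (interval 864 to 8123) and 1288-fold with it. That interval spans the 1774-fold of c93692_g1, which has 1 added and so is on another basis. Without the added 1 the group means of c93692_g1 were 13044 scaled reads in the controls and 6.36 at 12 h. The order of the largest total falls is thus not settled and may turn on the added 1.

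The 8 members with a second step of at least 32-fold included several unigenes of short implied length, 3 of them from the single component c72836. Dividing count by FPKM and library total gives the length by which the authors' FPKM were divided, which may be the full or an effective length. A short value therefore need not mean a short unigene. The implied length was 212 bases in the median of these 8. It was 1131 in the 37 members with a second step of 8-fold to 32-fold, 1374 in the 39 with 4-fold to 8-fold and 1721 in the 81 below 4-fold. The 8 lengths ran from 32.7 to 3661 bases, with 5 below 300 and 2 above 3000. Without the 3 of component c72836 the median of the other 5 was 398 bases. FPKM of unigenes with so small a divisor are large for their reads, so their rank by FPKM depends on that divisor.

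Over all members the length had a median of 1473 bases (quartiles 993 and 2142), against 1740 (1138 and 2581) over all unigenes with a control level of 400 or more. The late fall had a median of 1408 and the early fall that did not continue 1506, so the shorter length was shared by all 3 falling classes, and unigenes that met neither limit had 1919. Across members, length showed little relation with the first step (Spearman rho = 0.01) and a weak negative one with the second (rho = -0.23; n = 165). Length was not used in the choice, but it is computed from the same counts, and no test was made.

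Some members share the component number in their ID, which in assemblies with IDs of this form marks contigs that were linked by shared sequence. Such unigenes may be parts or copies of related genes. The 165 members fell into 155 components, and 18 of them shared 8 components, the others being the only member of theirs. Reads may be divided between unigenes of a component, so such members are not separate observations.

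Component c72836 held 4 members, the most of any. It included the highest control FPKM, the second largest total fall with 1 added, and short implied lengths of 97.3 to 166 bases. By group mean their levels were 18.9% to 40.5% of control at 2 h and 0.0777% to 1.46% at 12 h. In each of the 4, control replicate 2 was slightly above replicate 1, 2 h replicate 1 was above replicate 2, and the highest 12 h value was 79.3 scaled reads. Component c89079 held 2 members with nearly the same course: 32813 and 31305, then 12765 and 10037, then 1900 and 2198 scaled reads in one, and 26173 and 27486, then 11805 and 9835, then 2265 and 2381 in the other.

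Other components were mixed. Besides members, the 155 components held 67 further unigenes, of which 30 had a control level of at least 50 scaled reads. Of these 30, 6 met both fold limits, all of them below the control level of 400; 6 met the first only, 8 the second only and 10 neither. Both limits were met by 20.0% of these 30, against 2.18% of the 13642 unigenes with a control level of at least 50. These sets are unlike, since the 13642 include the 165 members. The 30 exclude members, so the 10 of them at a control level of 400 or more could not meet both limits. Shared reads could enter the shares, and their part was not tested.

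In component c90544, which holds c90544_g5, the control level of 2 other unigenes was kept at 2 h (333 to 329 and 1411 to 1464 scaled reads by group mean plus 1) and was lower at 12 h (24.5 and 93.9). A further one was at 346, 702 and 450. At 12 h the member and both of the former stood at 6.7% to 7.4% of control, so the group means were far apart at 2 h and close together at 12 h. The 2 h libraries of the member, 586 and 302 scaled reads, were themselves apart, the higher lies above 50% of its control mean of 1078, and its first step was not called. In component c87778 the member went from 2817 to 731 to 353, and its neighbour from 1676 to 467 and back up to 934.

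**Figure D5:**
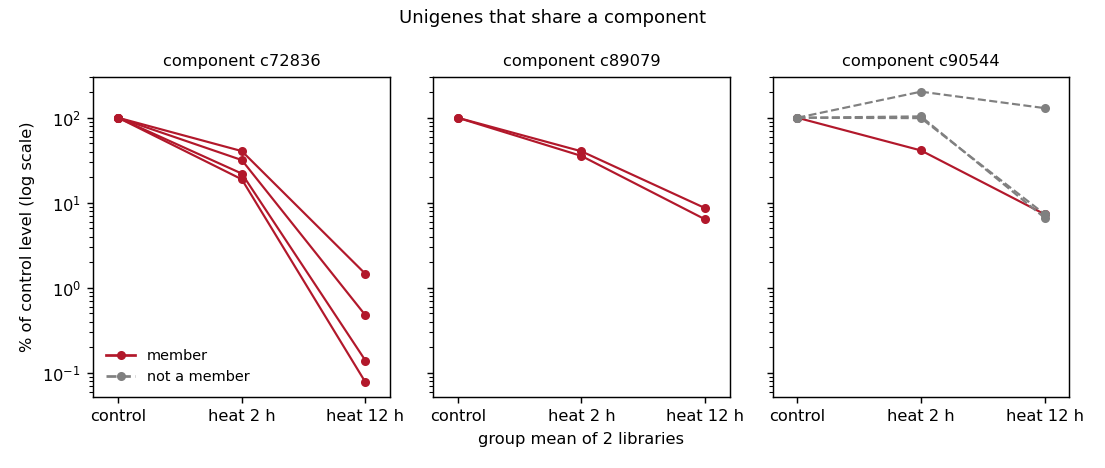
Group mean in percent of the control level, on a log axis, for unigenes of 3 components with a control level of at least 50 scaled reads; red lines are members and dashed grey lines are not. All 4 unigenes of c72836 and both of c89079 are members, while in c90544 the member and 2 others reach 6.7% to 7.4% at 12 h by different means at 2 h, that of the member resting on unequal libraries.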

How the data were processed

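RNA sequencing of leaf RNA gave 6 libraries, 2 per group, grouped by their titles. The authors deposited estimated counts per unigene, 99.3% of the values above 0 being whole, and FPKM, which relate reads to the length of the unigene and the size of the library. The submitters' processing notes list, in no stated role, HTSeq 0.6.1, DESeq 1.18.0, TopHat2 2.0.12 and Bowtie2 2.2.3. The counter, assembler and genome build are not given. Whether counting used strand is not given either, so overlapping transcripts of both strands cannot be told apart. The sheet with the counts is named for tall fescue, but its columns carry the bermudagrass sample names.

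Size factors were computed from the 18038 unigenes with at least 10 reads in every library, and members were chosen from the unrounded counts. For the test, counts were rounded, filtered with filterByExpr (minimum count 10, minimum total 15), scaled by TMM and fitted across all genes with edgeR 4.0.16 (glmQLFit, robust, 1 mean per group, 3 residual degrees of freedom, R 4.3.3). The Benjamini-Hochberg threshold was 0.05. Lengths are medians over libraries with 100 or more reads of the unigene. At the given depths, 6313500 to 9326725 reads per library, intervals and floors cover counting error only.

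Named members are the 2 highest by control FPKM, first step, second step and total fall, plus others named after their values were seen. The members, lists and rules were chosen with earlier results of these data known. The alternatives were TMM or total scaling, other limits, FPKM, DESeq2 1.42.0, limma 3.58.1 on log2(FPKM + 1) for unigenes above 0 in at least 2 libraries, a replicate block and leaving out each library.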

Additional observations from a re-analysis of the deposited data

How the results depend on the processing

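The rule gave 165 members with edgeR's TMM scaling as well, the same unigenes, but 105 with library totals alone, all among the 165. It gave 418 with steps of at least 1.5-fold, 31 with steps of at least 3-fold and 105 with the limits set on the nearest libraries of each group in place of the means. Control minimums of 200 and 800, no pseudocount, other rows for the size factors and FPKM gave 118 to 196, and leaving out 1 library 151 to 184. Of all unigenes, 7425 were called at 2 h against control; limma on log2(FPKM + 1) called 3738. Leaving out 1 library gave 4228 to 7878 at 2 h, the lowest without control replicate 1. Members called lower at 2 h numbered 152 with limma and 159 to 164 under every other alternative; at 12 h against control 163 to 165, and at 12 h against 2 h 155 with limma and 161 to 164 otherwise. With 1 library left in a group, that library is assumed to vary like the others.

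The labels give no pairing of replicate numbers. Deviations of same-numbered libraries from their group means correlated, across unigenes, at 0.0078 between control and 2 h, 0.035 between control and 12 h and 0.29 between 2 h and 12 h. With the replicate block edgeR called 163, 164 and 164 members lower in the 3 comparisons, in place of 161, 165 and 163.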
